A study of Mus musculus with 53 samples.

Results

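Lobules IX and X form the posterior end of the cerebellar vermis, and the P7 single-cell experiment of this mouse study held 4 libraries from cerebella with all lobules and 6 from cerebella without lobules IX and X. Members were chosen by the dissection written in each library's name, and the comparison was made within genotype groups on all genes. The 10 libraries are deposited as 1 of the 53 samples of the series, and 79855 of their listed barcodes were kept because they held at least 1000 transcripts and 500 genes. Of these, 35111 came from libraries with all lobules and 44744 from libraries without lobules IX and X.

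Each library came from 1 cerebellum of 1 mouse at postnatal day 7, with no pooling of animals, and all were prepared in one split-pool barcoding experiment. The Insm1 controls (n = 2) carried homozygous floxed Insm1 and the Insm1 mutants (n = 3) carried Atoh1Cre with the same floxed alleles. The Tead1/2 controls (n = 2) carried homozygous floxed Tead1 and Tead2 and the Tead1/2 mutants (n = 3) carried Atoh1Cre with those alleles. Each of the 4 genotype groups had 1 library with all lobules, each control group had 1 without lobules IX and X, and each mutant group had 2. The 4 libraries with all lobules are number 1 of their groups, so the dissection cannot be told apart from anything else those animals or preparations shared. Atoh1Cre is driven by sequences of Atoh1, a gene of the rhombic lip lineages, so cells outside those lineages in the mutants are not its main target. Going by its title, the study as a whole asks how muscle fate is held down in the developing cerebellum. The sources used here do not give the reason for removing the lobules.

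The cerebellum is divided along its length into lobules that form at different times and carry different proportions of cell types. The posterior lobules, lobule X above all, belong to the vestibular part of the cerebellum, and in the adult they are known for their many unipolar brush cells, excitatory interneurons of the granular layer. Granule cell progenitors divide in the external granular layer of every lobule during the first postnatal weeks, and region-restricted transcription factors such as Otx2, Otx1 and En1 mark different parts of this layer.

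The kept barcodes of a library held 90283508 to 211734358 transcripts, with medians of 6866 to 10178 transcripts per barcode, and no barcode name was shared between any 2 libraries. Levels of genes are given as counts-per-million (CPM) values, with library totals scaled by the TMM method. Insm1 was lower in both Insm1 mutant dissections than in their controls, at 14.5 CPM with all lobules and 5.73 and 7.67 CPM without, against 58.2 and 56.3 CPM in the controls. Tead2 was at 9.15 CPM with all lobules and at 7.65 and 7.26 CPM without in the Tead1/2 mutants, against 30.1 and 31.9 CPM in their controls. Tead1 was summed over the whole gene, reached 1125 to 1312 CPM in the Tead1/2 mutants against 630.2 and 631.4 CPM in their controls, and does not check its own deletion. In these sums over all barcodes, fewer cells of a type and less RNA per cell cannot be told apart.

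No gene passed the test between dissections when counts were summed over all kept barcodes. With genotype group as a block, edgeR's quasi-likelihood test called 0 of 24602 genes (0%) at a Benjamini-Hochberg adjusted p (FDR) under 0.05, and the smallest FDR was 0.725. At an unadjusted p under 0.05 there were 1645 genes (6.69%), 808 higher (3.28%) and 837 lower (3.4%) with all lobules. DESeq2 with the same design called 17 genes, 11 higher and 6 lower. With no filter on low counts, edgeR called 49 genes, of which 25 were higher and 24 lower. In the same edgeR fit the mutants differed from their controls at 8284 genes (33.7%) for Insm1 and 11680 genes (47.5%) for Tead1/2. The median log2 difference between dissections over all genes tested was -0.00028, with a median standard error (SE) of 0.11. The first principal component of the sums held 80.0% of the variance and separated mutants from controls.

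Below the threshold, the genes with the smallest unadjusted p were the same in direction in every genotype group. The 10 of smallest p in each direction, with a mean of at least 1 CPM, kept that direction against every library without lobules IX and X of the same group. Of all genes whose mean reached 1 CPM, 5.32% were higher and 3.24% lower with all lobules in every group, and for genes picked by p the order is a description. Of the 17 genes that DESeq2 called, 15 are among these 20, and the other two are Otx2 and Shb. All log2 differences below are all lobules minus without lobules IX and X.

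Otx2os1, a noncoding RNA gene next to Otx2, was higher with all lobules. It stood at 41.1 CPM against 15.03 CPM in the Insm1 controls and at 54.5 CPM against 26.95 and 24.01 CPM in the Insm1 mutants. It stood at 31.3 CPM against 23.3 CPM in the Tead1/2 controls and at 57.8 CPM against 39.5 and 46.6 CPM in the Tead1/2 mutants. The library with all lobules was the highest of its group each time, by a wider margin in both Insm1 groups. The log2 difference was 0.84 (SE 0.15), with an edgeR FDR of 0.725 and a DESeq2 adjusted p of 8.9e-05. Otx2 itself, which encodes a homeodomain factor of posterior granule cell progenitors, stood at 32.6 CPM against 18.6 CPM in the Insm1 controls and 50.7 CPM against 35.7 and 33.9 CPM in the Insm1 mutants. In the Tead1/2 groups the Otx2 gap was narrower, at 28.3 CPM against 24.8 CPM in controls and 38.8 CPM against 34.0 and 35.0 CPM in mutants. The Otx2 log2 difference was 0.42 (SE 0.093), and a DESeq2 adjusted p of 0.021 stood beside an edgeR FDR of 0.725. The sources used here do not state the strand used for counting, so reads shared by these neighbouring genes could not be separated.

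Slc17a6, which encodes the vesicular glutamate transporter VGLUT2, was also higher with all lobules in each group. Its levels were 116 CPM against 82.5 CPM in the Insm1 controls and 47.2 CPM against 28.6 and 21.2 CPM in the Insm1 mutants. They were 106.7 CPM against 99.5 CPM in the Tead1/2 controls and 28.6 CPM against 13.2 and 15.5 CPM in the Tead1/2 mutants. Within each mutant group the dissections did not overlap, and within each allele the mutant library with all lobules lay between the other mutants and the controls. The log2 difference was 0.68 (SE 0.14; edgeR FDR 0.725, DESeq2 adjusted p 0.0032). Cacna2d1, which encodes a calcium channel subunit, had the highest level of the 20 genes and followed the same order, with a log2 difference of 0.35 (SE 0.068). It stood at 2384 CPM against 1919 CPM in the Insm1 controls, 1570 CPM against 1144 and 1094 CPM in the Insm1 mutants and 1366 CPM against 1006 and 963 CPM in the Tead1/2 mutants. Its levels were close in the Tead1/2 controls, at 1755 and 1727 CPM.

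Bmpr1b, which encodes a type I BMP receptor, had the smallest p of all genes. It stood at 252 CPM against 212.2 CPM in the Insm1 controls, 269.2 CPM against 227.3 and 235.3 CPM in the Insm1 mutants, 221.4 CPM against 190.5 CPM in the Tead1/2 controls and 234.2 CPM against 180.5 and 195.4 CPM in the Tead1/2 mutants. The log2 difference was 0.25 (SE 0.036), small and of like size in the 4 groups (0.22 to 0.32). Among the other higher genes, Lrba differed by 0.22, Frmd3 by 0.33, Syndig1l by 0.77, Slc22a22 by 0.81, C1qtnf3 by 0.51 and the noncoding Gm49144 by 0.45 on the log2 scale. Syndig1l, Slc22a22 and C1qtnf3 were at or under 2.83 CPM in every library.

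**Figure D1:**
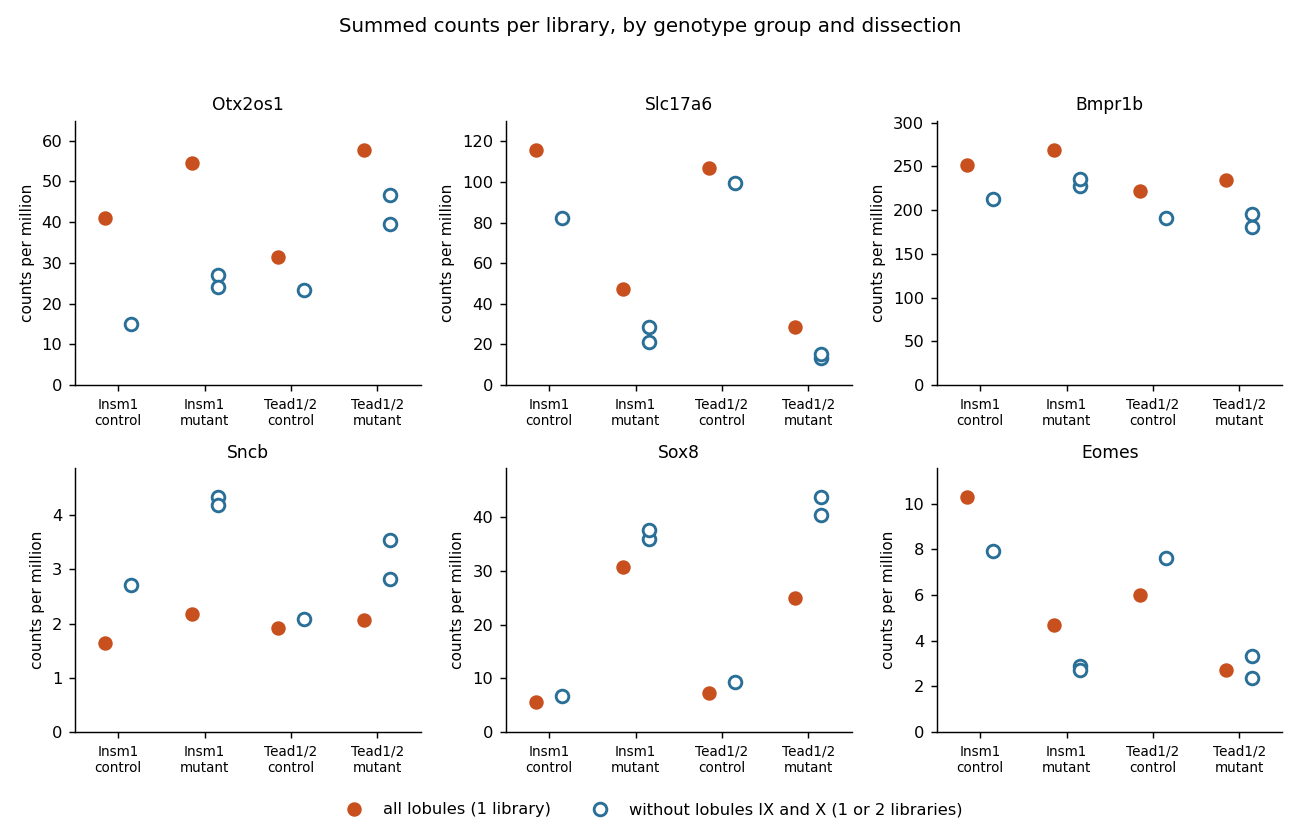
Summed CPM of 6 genes in each of the 10 libraries, by genotype group (x axis), with filled points for all lobules and open points for libraries without lobules IX and X. Otx2os1, Slc17a6 and Bmpr1b are higher and Sncb and Sox8 lower with all lobules in all 4 groups, while Eomes overlaps between dissections.

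Of the lower genes, Sncb, which encodes beta-synuclein, stood at 1.64 CPM against 2.70 CPM in the Insm1 controls and 2.17 CPM against 4.34 and 4.18 CPM in the Insm1 mutants. Sncb stood at 1.91 CPM against 2.08 CPM in the Tead1/2 controls and 2.07 CPM against 2.82 and 3.54 CPM in the Tead1/2 mutants. Sox8, a transcription factor gene, stood at 5.55 CPM against 6.71 CPM in the Insm1 controls. In the Insm1 mutants it stood at 30.8 CPM against 35.8 and 37.6 CPM. Sox8 stood at 7.36 CPM against 9.37 CPM in the Tead1/2 controls and 24.9 CPM against 43.8 and 40.35 CPM in the Tead1/2 mutants. The log2 differences were -0.64 (SE 0.13) for Sncb and -0.42 (SE 0.085) for Sox8, both at an edgeR FDR of 0.725. The other lower genes were Nptx1 at -0.30, Cerox1 at -0.62, Crmp1 at -0.21, Gm35835 at -0.43, Sox1 at -0.50, Psg16 at -0.56, Frrs1l at -0.20 and Mymx at -0.55. Nptx1 encodes a secreted synaptic pentraxin and Crmp1 a protein of growing axons.

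No call was made among the unipolar brush cell genes reported here. Of these 6 genes, 4 lay above 0 and 2 below, none reached an unadjusted p under 0.05 in the edgeR fit, and their median log2 difference was 0.07. Eomes, the transcription factor gene that marks these cells, stood at 10.3 CPM against 7.94 CPM in the Insm1 controls and 4.69 CPM against 2.90 and 2.73 CPM in the Insm1 mutants. The order turned in the Tead1/2 controls, at 6.01 CPM with all lobules and 7.61 CPM without, and in the Tead1/2 mutants 2.74 CPM lay between 2.36 and 3.32 CPM. Its log2 difference was 0.21, with a 95% interval of -0.16 to 0.59 that leaves room for a difference either way. Lmx1a, a transcription factor gene of the rhombic lip, was 0.60 higher on the log2 scale (95% interval -0.09 to 1.28). It overlapped within the Insm1 mutants, at 1.13 CPM against 1.25 and 0.40 CPM, but not within the Tead1/2 mutants. Calb2, Grm2, Plcb1 and Plcb4 lay between -0.08 and 0.09.

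Barcodes with a transcript of Eomes were counted as well. After each barcode was thinned to 1000 transcripts, 0.962% of barcodes held Eomes with all lobules and 0.792% without in the Insm1 controls, and 0.720% against 0.315% and 0.209% in the Insm1 mutants. The shares were 0.651% against 0.811% in the Tead1/2 controls and 0.333% against 0.278% and 0.368% in the Tead1/2 mutants. The mean difference over groups was 0.12 percentage points (two-sided exact permutation test within genotype groups, 36 assignments, p = 0.278, smallest possible 0.0278), and for Lmx1a it was 0.0184 points (exact p = 0.333). Single libraries moved both: the Eomes difference was 0.00682 points without the Insm1 mutant with all lobules and 0.21 points without either Tead1/2 control. For Lmx1a it was 0.000525 points without the Tead1/2 mutant with all lobules and 0.0334 points without either Tead1/2 control. Without thinning, 2.86% to 12.7% of barcodes held Eomes and the mean difference turned to -0.30 points (exact p = 0.722). The background was 0.227% in endothelial-like barcodes (exact binomial 95% interval 0.0468% to 0.661%, median depth 16957 transcripts) and 0.258% in microglia-like barcodes (0.111% to 0.507%, median depth 10375). Granule neuron-like barcodes held Eomes in 1.52% (1.34% to 1.72%, median depth 5460). Lmx1a was held by 3.29% of ependyma-like barcodes and by at most 0.0975% of any other class. Intervals cover counting error only. Otx2 was added to this count after its values in these libraries were seen, so its p is a description and not separate support. Otx2 was held by 3.26% of thinned barcodes against 1.87% in the Insm1 controls and 4.60% against 3.63% and 3.89% in the Insm1 mutants. Its shares were 2.80% against 2.28% in the Tead1/2 controls and 3.78% against 3.40% and 3.49% in the Tead1/2 mutants, so the library with all lobules was highest in each group. The mean difference was 0.77 points (exact permutation p = 0.0278, 0.0833 after Benjamini-Hochberg adjustment over the 3 genes), 0.56 points without either Insm1 control (exact p = 0.0556) and 0.78 points without thinning (exact p = 0.722). Otx2 was held by 1.89% of endothelial-like and 1.38% of microglia-like barcodes, against 5.33% of granule progenitor-like barcodes (median depth 6668). It was held by 5.33% of skeletal muscle-like and 4.47% of ependyma-like barcodes as well. Pooled over libraries, the skeletal muscle-like share was 4.63% with all lobules and 5.62% without. No cluster was led by the unipolar brush cell markers, of which granule neuron-like clusters 7 and 20 carried 2 each, so these cells were not compared as a class.

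Of the 25 cerebellar patterning genes, Otx2 and En1 were higher and Irx2 lower at an unadjusted p under 0.05, where 3.28% of all genes were higher and 3.4% lower. In edgeR 0 of the list had an FDR under 0.05, DESeq2 called Otx2, and the list median was 0.01. En1, a homeobox gene of the midbrain and cerebellum, stood at 9.91 CPM against 8.20 CPM in the Insm1 controls and 4.40 CPM against 2.12 and 2.41 CPM in the Insm1 mutants. Across the Tead1/2 groups En1 stood at 6.01 CPM against 6.58 CPM in controls and 3.11 CPM against 2.04 and 2.36 CPM in mutants, so the order turned in the Tead1/2 controls. Of the 11 choroid plexus genes, Ttr and Otx2 were higher at an unadjusted p under 0.05, beside the same 3.28% of all genes. Ttr, the transthyretin gene, was at 58.0 CPM with all lobules and 24.9 CPM without in the Tead1/2 controls and at or under 0.30 CPM in the other 8 libraries. Its log2 difference was 0.85 over all libraries, 0.37 without either Tead1/2 control and -0.13 in the Insm1 libraries alone.

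Most listed genes of several cell types lay below 0, that is, lower with all lobules, without passing the test. Of the 10 Purkinje cell genes, 9 lay below 0, Calb1, Pcp2, Car8 and Skor2 at an unadjusted p under 0.05, and their median log2 difference was -0.42. This lay mostly in the Insm1 libraries, where Calb1, Car8 and Skor2 differed by -2.675 to -1.39 in each group, against -0.60 to 0.11 in the Tead1/2 groups, and Pcp2 alone of the 10 lay below 0 in all 4 groups. Of the 12 oligodendrocyte lineage genes, 11 lay below 0, Olig1, Olig2, Sox10 and Gpr17 at an unadjusted p under 0.05, with a median of -0.30. All 10 microglia genes lay below 0, C1qa, C1qb, C1qc and Aif1 at an unadjusted p under 0.05, with a median of -0.35. Among the lists of other cell types with no gene at that threshold, those below 0 held 10 of 11 meningeal fibroblast genes (median -0.18), 9 of 10 GABAergic interneuron genes (median -0.12), 10 of 11 astroglia genes (median -0.0704) and 8 of 10 endothelial genes (median -0.0947). Others lay mostly above 0, with 6 of 9 mural genes (median 0.0161), 5 of 8 ependyma genes (median 0.11) and 5 of 5 blood cell genes (median 0.0318). Over all genes tested, 3.4% were lower at that threshold, and none of these genes reached an edgeR FDR under 0.05. Sox10, an oligodendrocyte lineage transcription factor gene, stood at 4.64 CPM against 5.82 CPM, 7.63 CPM against 9.30 and 9.20 CPM, 7.40 CPM against 9.96 CPM and 11.9 CPM against 14.0 and 19.3 CPM, with the Insm1 groups first and controls before mutants.

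**Figure D2:**
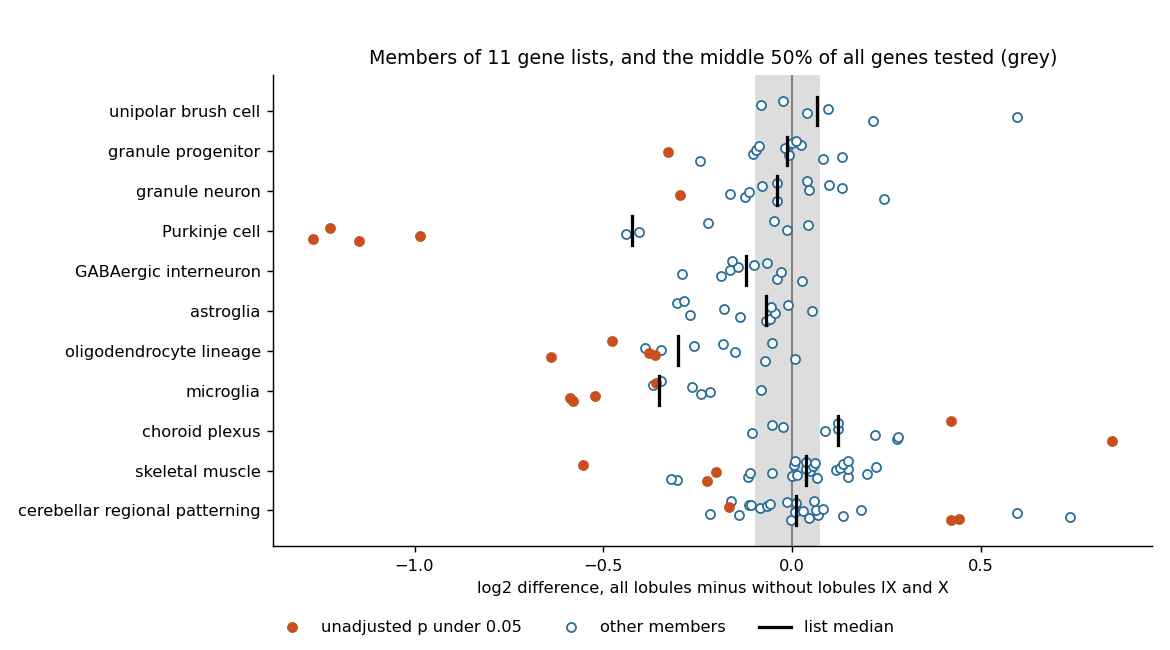
Log2 difference (x axis, all lobules minus without lobules IX and X) of the members of 11 gene lists from sums over all kept barcodes, with list medians as black bars. Filled points have an unadjusted p under 0.05, and the grey band from -0.09 to 0.07 holds the middle 50% of all genes tested. Purkinje cell, oligodendrocyte lineage and microglia medians lie well left of the band, the GABAergic interneuron median just left of it and the choroid plexus median right of it.

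Skeletal muscle genes gave no edgeR call between dissections. In both control groups Ttn, the giant sarcomere protein gene, was at 35.5 to 48.8 CPM. Of the 26 listed genes 17 lay above 0 and 9 below, with a median log2 difference of 0.04, where 49.9% of all genes tested lay above 0. Myod1, Tnni1 and Mymx were lower with all lobules at an unadjusted p under 0.05, as were 3.4% of all genes. Ttn stood at 4050 CPM against 4746 and 3922 CPM in the Insm1 mutants and at 15080 CPM against 13360 and 9120 CPM in the Tead1/2 mutants, so the dissections overlapped in the first and did not in the second. Myod1, a master myogenic factor gene, stood at 13.6 CPM against 15.7 and 16.4 CPM in the Insm1 mutants and at 12.5 CPM against 17.3 and 14.6 CPM in the Tead1/2 mutants. Mymx, which encodes a myoblast fusion protein, stood at 6.35 CPM against 9.10 and 8.21 CPM and at 5.87 CPM against 11.3 and 8.71 CPM in the same order. In the controls Mymx was at or under 0.285 CPM in every library. Mymk, the other fusion gene of the list, overlapped in both mutant groups, at 23.95 CPM against 24.87 and 22.3 CPM and at 43.56 CPM against 49.44 and 41.58 CPM. The sarcomere gene Tnni1 was at 65.2 CPM against 75.5 and 70.1 CPM in the Insm1 mutants and overlapped in the Tead1/2 mutants, at 150.2 CPM against 184.7 and 142.4 CPM.

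Clustering gave 33 clusters, and 12 classes besides the joint granule lineage were named "-like" from listed markers. Over 13 shares tested, none reached an adjusted p under 0.05 (smallest 0.181), and 2 had the smallest exact p the design allows. Purkinje cell-like barcodes made up 0.289% of kept barcodes with all lobules against 1.98% without in the Insm1 controls, and 0.748% against 1.91% and 3.01% in the Insm1 mutants. The shares were 0.124% and 0.140%, 12 and 9 barcodes, in the Tead1/2 controls and 0.147% against 0.247% and 0.328% in the Tead1/2 mutants. The mean difference was -0.89 percentage points (two-sided exact permutation test, p = 0.0278, adjusted p = 0.181), nearly all of it from the Insm1 libraries. Without either Insm1 control, or without the Insm1 mutant with all lobules, the difference was -0.62 points. Purkinje cells are the large inhibitory output neurons of the cerebellar cortex, and their few barcodes held a median of 56714 transcripts.

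Granule progenitor-like barcodes were more frequent with all lobules in each group. Their share was 24.7% against 24.4% in the Insm1 controls and 19.5% against 18.5% and 15.8% in the Insm1 mutants. It was 34.1% against 31.6% in the Tead1/2 controls and 22.9% against 16.0% and 17.99% in the Tead1/2 mutants. The mean difference was 2.75 points (two-sided exact permutation test, p = 0.0278, adjusted p = 0.181), smallest in the Insm1 controls at 0.23 points and largest in the Tead1/2 mutants at 5.90 points. Without the Tead1/2 mutant with all lobules the difference was 1.69 points. Unnamed cluster 5 (3044 barcodes, 98.3% from controls) carried 8 granule progenitor and 6 granule neuron markers and is not in these shares. Unnamed barcodes made up 11.8% against 8.67% in the Insm1 controls and 6.12% against 7.57% in the Tead1/2 controls. The ranking of groups by difference therefore rests on the naming of clusters. The 12 granule progenitor genes in the sums over all barcodes did not follow the shares, with 4 above 0, 8 below, 1 lower at an unadjusted p under 0.05 and a median log2 difference of -0.0127. Skeletal muscle-like barcodes made up 12.9% against 14.2% and 13.9% in the Insm1 mutants and 20.3% against 26.0% and 19.3% in the Tead1/2 mutants (mean difference over the 4 groups -0.86 points, exact p = 0.667). That difference was -0.0146 points without Tead1/2 mutant 2, -0.38 points without the Tead1/2 mutant with all lobules and -1.71 points without Tead1/2 mutant 3. Unnamed cluster 32, with 953 barcodes, carried 24 skeletal muscle markers and is not in the skeletal muscle-like share.

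**Figure D3:**
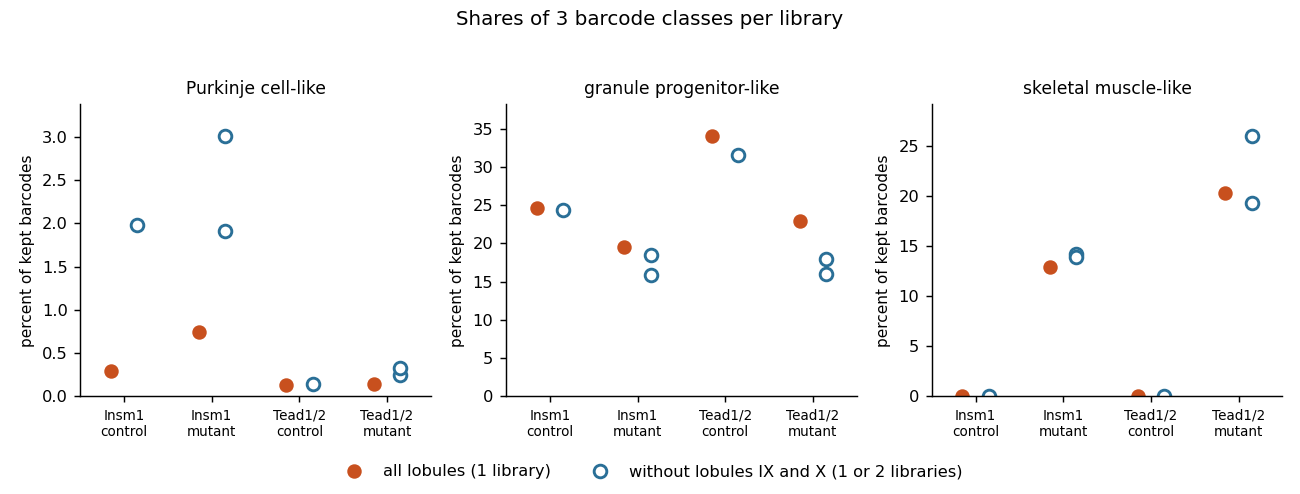
Share of kept barcodes (percent, y axis) in 3 classes for each library, by genotype group, with filled points for all lobules and open points for libraries without lobules IX and X. Purkinje cell-like shares are lowest and granule progenitor-like shares highest with all lobules in each group, and the skeletal muscle-like shares of the Tead1/2 mutants overlap.

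A further pattern lay in where the mutant barcodes fell among the clusters. It was chosen after the values were seen and is a description with no test. Controls gave 44.3% of all kept barcodes, and 7 of the 33 clusters drew at least 75% of their barcodes from controls. They were 3 granule progenitor-like, 2 granule neuron-like, 1 GABAergic interneuron-like and 1 unnamed. The GABAergic interneuron-like one, cluster 15, carried 8 markers of its class and 6 granule progenitor markers. Of its barcodes 22.1% were among the 10% with the highest Scrublet scores, and the part of mixed barcodes was not tested. The 7 clusters held 64.8% to 74.2% of the barcodes of the control libraries, which their choice by control barcodes makes high. In the Insm1 mutants they held 16.2% (exact binomial 95% interval 15.3% to 17.0%) with all lobules against 7.11% (6.54% to 7.71%) and 5.40% (4.77% to 6.08%) without. In the Tead1/2 mutants they held 18.4% (17.5% to 19.3%) with all lobules against 6.41% (5.93% to 6.91%) and 10.51% (9.83% to 11.2%) without. The mutant library with all lobules was above both others in each mutant group. These intervals cover counting error within a library and not the spread between animals. In both mutant groups the libraries without lobules IX and X also lay outside each other's intervals.

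The pattern was present within both granule classes. Of the granule progenitor-like barcodes of the Insm1 mutants, 36.01% lay in control-rich clusters with all lobules and 18.03% and 12.7% without, and in the Tead1/2 mutants 43.3% against 19.7% and 29.6%. Of the granule neuron-like barcodes, the shares were 26.7% against 10.6% and 12.99% in the Insm1 mutants and 40.4% against 20.4% and 29.8% in the Tead1/2 mutants. In the controls, by whose barcodes the clusters were chosen, 95.5% to 99.95% of either class lay there. With finer clustering at resolution 2.0, 10 clusters passed the same limit and the order was the same, at 15.5% against 6.52% and 4.96% of all barcodes in the Insm1 mutants and 17.3% against 5.57% and 8.92% in the Tead1/2 mutants. Insm1 itself was highest in the same library of the Insm1 mutants, at 14.5 CPM against 5.73 and 7.67 CPM, and so was Tead2 in the Tead1/2 mutants, at 9.15 CPM against 7.65 and 7.26 CPM. In both mutant groups the libraries without lobules IX and X ranked the opposite way for these genes and for the control-rich share of all kept barcodes. In granule neuron-like barcodes of the Insm1 mutants they ranked the same way for Insm1 and for this share, at 10.6% and 12.99%. In the Tead1/2 mutants Insm1 went the other way, at 28.1 CPM with all lobules against 55.0 and 54.3 CPM. Granule lineage-like shares were highest with all lobules too, at 46.6% against 41.6% and 32.9% in the Insm1 mutants. In the Tead1/2 mutants they were 40.3% against 28.9% and 31.1%. The mutant libraries with all lobules also had the lowest median depths of their groups, 6866 and 6868 transcripts per barcode against 8020 to 10178. The part of Insm1 and Tead2 levels, of granule lineage shares and of depth in this pattern was not tested.

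**Figure D4:**
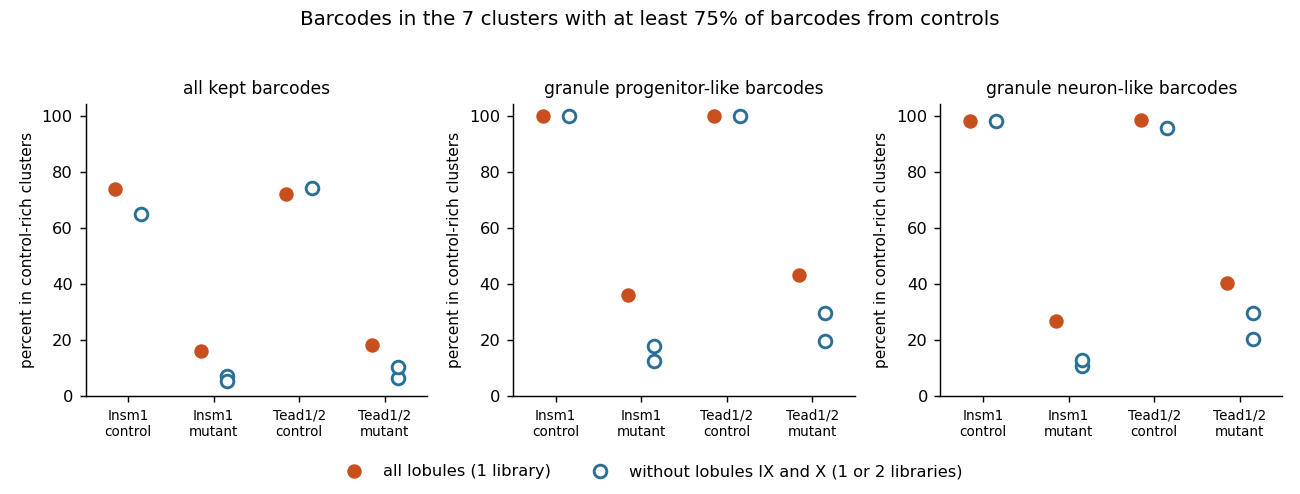
Share of barcodes (percent, y axis) in the 7 clusters that drew at least 75% of their barcodes from controls, for all kept barcodes and for 2 classes, by genotype group. In both mutant groups the filled point (all lobules) lies above the open points (without lobules IX and X). The controls, by whose barcodes the clusters were chosen, lie far above.

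Within cell classes, where the share of a class no longer enters, few genes were called. In granule neuron-like barcodes edgeR called 5 of 14784 genes (0.0338%), 4 higher and 1 lower with all lobules, and DESeq2 called 36. Shisa9, which encodes an auxiliary subunit of AMPA receptors, stood at 34.7 CPM against 9.37 CPM in the Insm1 controls, 44.0 CPM against 9.61 and 6.25 CPM in the Insm1 mutants, 20.2 CPM against 11.6 CPM in the Tead1/2 controls and 63.6 CPM against 12.4 and 33.3 CPM in the Tead1/2 mutants. The lowest library with all lobules still stood above all others of its own group, and the log2 difference was 1.71 (SE 0.24; edgeR FDR 0.0233). Bmpr1b stood at 140.9 CPM against 105 CPM, 204.8 CPM against 138.2 and 162.4 CPM, 126.5 CPM against 86.5 CPM and 279.6 CPM against 157.2 and 192.6 CPM in the same order of groups, a log2 difference of 0.53 (SE 0.066; edgeR FDR 0.0204).

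The other called genes of granule neuron-like barcodes had smaller log2 differences than Shisa9. Zfhx4, a zinc finger homeobox gene, was 0.43 higher (SE 0.058; edgeR FDR 0.0204) and Sdk1, an immunoglobulin adhesion gene, 0.34 higher (SE 0.046; edgeR FDR 0.0204) on the log2 scale. The log2 differences of both genes and of Bmpr1b lay above 0 in all 8 classes tested. They ranged from 0.25 to 0.43 for Zfhx4, 0.12 to 0.42 for Sdk1 and 0.0516 to 0.53 for Bmpr1b, and edgeR called none of them in the other 7 classes (smallest FDR 0.206). Smad3, which encodes a signal transducer of the TGF-beta pathway, was 0.62 lower, written as a log2 difference of -0.62 (SE 0.095; edgeR FDR 0.0445). It stood at 2.52 CPM against 3.77 CPM in the Insm1 controls, 25.6 CPM against 36.6 and 41.8 CPM in the Insm1 mutants, 3.31 CPM against 4.28 CPM in the Tead1/2 controls and 15.7 CPM against 27.5 and 24.9 CPM in the Tead1/2 mutants. Each of the 5 kept its direction against every library without lobules IX and X of the same group. In this class 3.79% of all genes tested were higher and 4.96% lower in every group. Leaving out each library in turn gave 0 to 22 calls: 0 without either Insm1 control, without the Insm1 mutant with all lobules, without Insm1 mutant 2 or without the Tead1/2 mutant with all lobules, 1 without Insm1 mutant 3, 4 without Tead1/2 mutant 2, and 20 to 22 without either Tead1/2 control or without Tead1/2 mutant 3. The mix of clusters within the class differed between mutants and controls and, in the mutants, between dissections. Its 2 control-rich clusters held 26.7% of the class with all lobules against 10.6% and 12.99% without in the Insm1 mutants, and 40.4% against 20.4% and 29.8% in the Tead1/2 mutants. The part of this mix in the 5 calls was not tested.

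**Figure D5:**
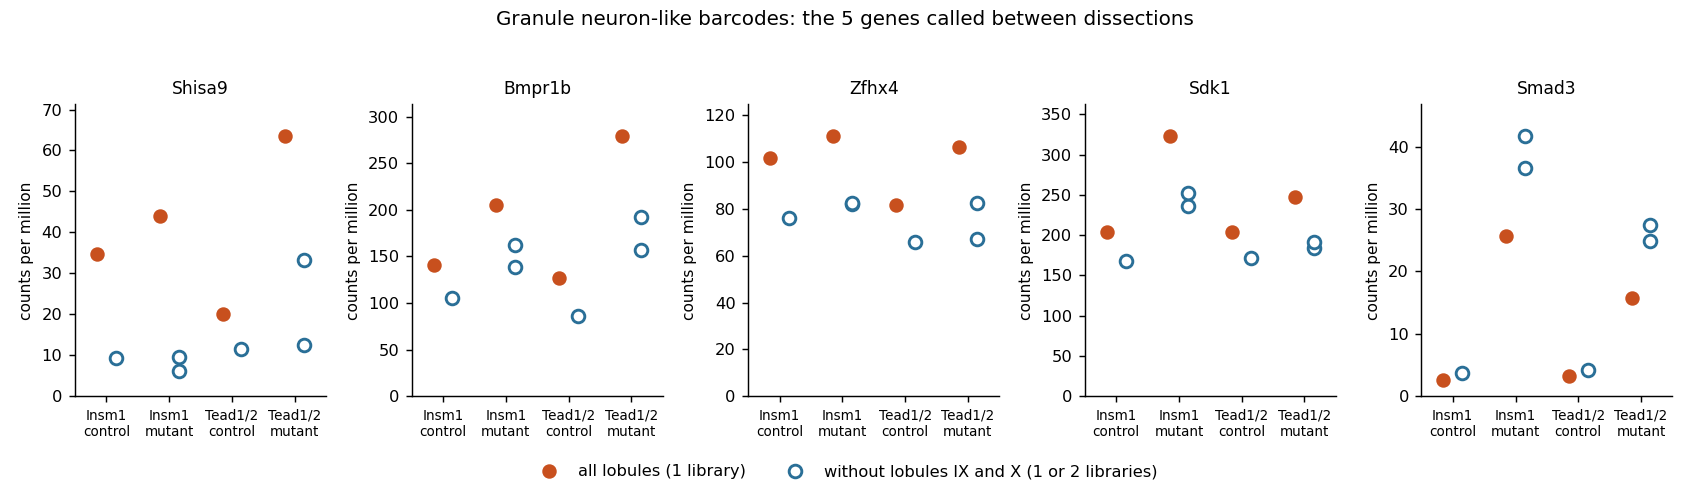
CPM of the 5 called genes in sums over granule neuron-like barcodes of each library, by genotype group, with filled points for all lobules and open points for libraries without lobules IX and X. Shisa9, Bmpr1b, Zfhx4 and Sdk1 are higher and Smad3 is lower with all lobules in every group.

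In other classes Shisa9 gave mixed values. In GABAergic interneuron-like barcodes it was 1.20 higher on the log2 scale (edgeR FDR 0.0513). Cluster 17 held 32.4% of that class with all lobules against 41.0% and 43.4% without in the Insm1 mutants. In the Tead1/2 mutants it held 22.4% against 40.6% and 32.8%. Of the barcodes of cluster 17, 22.3% were among the 10% with the highest Scrublet scores. The part of this mix and of mixed barcodes in the Shisa9 difference was not tested. In granule progenitor-like barcodes the Shisa9 difference was 0.15 and in endothelial-like barcodes -0.20, both with overlapping libraries. Its levels were highest in astroglia-like barcodes, at 198.7 to 773.8 CPM, where the difference was 0.18, and in sums over all barcodes it was -0.06. Otx2os1 had a log2 difference above 0 in all 8 classes, from 0.64 in microglia-like to 1.00 in endothelial-like barcodes. Slc17a6 was above 0 in all 8 classes, from 0.36 to 0.68, and Otx2 from 0.15 to 0.48. Otx2os1 levels in endothelial-like barcodes were 12.3 to 46.5 CPM, beside 15.03 to 57.8 CPM in the sums over all barcodes, and the part of transcripts from other cells in these class sums was not tested.

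In oligodendrocyte lineage-like barcodes edgeR called 3 of 16626 genes (0.018%), all lower with all lobules, and DESeq2 called 70. Slc7a11, the cystine transporter gene, stood at 8.46 CPM against 15.6 CPM in the Insm1 controls, 23.1 CPM against 41.9 and 42.5 CPM in the Insm1 mutants, 8.90 CPM against 19.6 CPM in the Tead1/2 controls and 26.9 CPM against 43.6 and 44.1 CPM in the Tead1/2 mutants (log2 difference -0.87, SE 0.079, edgeR FDR 0.00664). Sidt1 differed by -0.90 and Col1a2, a type I collagen gene, by -1.02 on the log2 scale (edgeR FDR 0.0332 for both). All 3 genes were far higher in meningeal fibroblast-like barcodes, with Slc7a11 at 286.3 to 1504 CPM and Col1a2 at 316.5 to 1169 CPM. Of the 9 meningeal fibroblast genes tested in oligodendrocyte lineage-like barcodes, 7 were lower at an unadjusted p under 0.05, where 5.91% of all genes tested in this class were, with a median log2 difference of -0.93 and summed levels of 202 to 507.3 CPM with all lobules and 187 to 1090.2 CPM without. Of the 24 skeletal muscle genes tested there, 21 were lower, with a median of -1.04 and sums of 56.0 to 4142 CPM against 61.5 to 8382 CPM. The class was made of 2 clusters, of which cluster 0 held 57.3% with all lobules against 43.0% without in the Insm1 controls and 51.3% against 44.4% and 50% in the Insm1 mutants. It held 45.9% against 40.8% in the Tead1/2 controls and 35.9% against 36.8% and 40.2% in the Tead1/2 mutants. The part of these other cell types and of the mix of clusters in the 3 calls was not tested. Leaving out each library in turn gave 0 to 9 calls: 0 without the Insm1 mutant with all lobules, 9 without Tead1/2 mutant 3, 5 without the Insm1 control with all lobules, 4 without the other Insm1 control, and 1 without Insm1 mutants 2 or 3, either Tead1/2 control or the other two Tead1/2 mutants.

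In the remaining 6 classes and the joint granule lineage, edgeR called 0 genes (0%). Genes at an unadjusted p under 0.05 numbered 1373 (8.16%) in GABAergic interneuron-like, 1465 (8.74%) in astroglia-like, 516 (3.61%) in endothelial-like, 1299 (8.29%) in granule progenitor-like, 1510 (8.77%) in meningeal fibroblast-like, 1157 (7.19%) in microglia-like and 1569 (9.14%) in granule lineage-like barcodes. DESeq2 called 10, 34, 6, 19, 89, 2 and 37 in the same order. Leaving out Tead1/2 mutant 3 gave 102 calls in meningeal fibroblast-like barcodes, and in granule lineage-like barcodes there were 7 without the Tead1/2 control with all lobules and 9 without the other. The smallest p in granule progenitor-like barcodes belonged to Opcml, an adhesion molecule gene named after its values were seen, at a log2 difference of 0.60 (edgeR FDR 0.129).

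Whether the dissection acted alike in mutants and controls, or for both alleles, was tested by interaction terms. For mutants against controls edgeR called 0 of 24602 genes (0%), with 764 genes (3.11%) at an unadjusted p under 0.05, and DESeq2 called 11. Its 5 genes of smallest p were Gm13123, Gsn, Kcnh8, Gm8730 and A730006G06Rik, all at an edgeR FDR of 1. Kcnh8, a potassium channel gene, stood at 49.7 CPM against 28.9 and 31.7 CPM in the Insm1 mutants and 49.5 CPM against 33.2 and 35.0 CPM in the Tead1/2 mutants, with 124.6 against 120.9 CPM and 108.3 against 104.4 CPM in the controls. Gsn, the gelsolin gene, stood at 3.12 CPM against 5.41 CPM and 7.96 CPM against 10.99 CPM in the controls and at 17.4 CPM against 16.8 and 15.2 CPM and 53.5 CPM against 45.6 and 44.5 CPM in the mutants.

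For Insm1 against Tead1/2 libraries edgeR also called 0 genes (0%), with 1552 (6.31%) at an unadjusted p under 0.05 and a smallest FDR of 0.127, and DESeq2 called 140, 9 higher and 131 lower. The 5 of smallest p were Gm11645, Prmt8, Itpr1, Shisa6 and 4930524C18Rik. Itpr1, the calcium release channel gene that Purkinje cells express strongly, stood at 230.2 CPM against 496.9 CPM in the Insm1 controls and 353.8 CPM against 617.7 and 729.2 CPM in the Insm1 mutants. Itpr1 in the Tead1/2 libraries stood at 221.7 against 221.2 CPM in controls and 251.6 CPM against 216.8 and 235.5 CPM in mutants. The interaction for Itpr1 was -1.10 on the log2 scale (SE 0.12; edgeR FDR 0.127). Shisa6, a relative of Shisa9, followed the same order, at 21.0 CPM against 65.3 CPM and 45.6 CPM against 90.1 and 106.2 CPM in the Insm1 libraries and 14.1 to 24.1 CPM in the Tead1/2 libraries. The share of Purkinje cell-like barcodes moved with these genes in the Insm1 libraries, and its part in them was not tested. Gm11645 was at 1.14 to 1.69 CPM in the 3 Tead1/2 libraries without lobules IX and X and at or under 0.0726 CPM in the other 7.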

How the data were processed

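For each of the 10 libraries the authors deposited raw transcript counts by gene and barcode, unfiltered down to 10 transcripts a barcode and without cell types. The gene tables name a GRCm39 build, and the sources used here do not give the aligner or counting rules. Each library used its own first-round wells and all shared 8 sublibraries. Genotype and dissection come from the library names, as the labels give 1 mixed sample. The members and gene lists were chosen with earlier results of these data known, and 2 other genes of the unipolar brush cell list are not reported here.

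Barcodes with at least 1000 transcripts and 500 genes were kept. They held 91.7% to 94.3% of each library's transcripts. Counts were summed per library and tested with edgeR 4.0.16 (R 4.3.3; quasi-likelihood, TMM factors, filterByExpr) on genotype group plus dissection, with 5 residual degrees of freedom. A gene is called at a Benjamini-Hochberg FDR under 0.05. DESeq2 1.42.0 was an alternative. An adjusted p that DESeq2 left out stayed out. The fit was tested on simulated counts. Named genes are the 10 of smallest p in each direction with a mean of at least 1 CPM, called list members, the listed unipolar brush cell genes, the targeted genes, the 5 of smallest p in each interaction, and called genes within classes.

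Barcodes were clustered in scanpy 1.11.5 (Python 3.11.15; counts per 10000, log-transformed, 2000 variable genes, 30 components, 15 neighbours, Leiden resolution 1.0) with no integration, and clusters were named from listed markers, so shares rest on rebuilt names. Of the 33 clusters, 4 stayed unnamed. Classes with at least 20 barcodes in each library were fitted. No doublets were removed, because Scrublet at its own threshold marked 22.6% to 58.9% of barcodes per library. Leaving out the 10% with the highest scores was an alternative. Shares were compared by two-sided exact permutation of the dissection within genotype groups. 6 of the libraries are from females and 4 from males by Xist and Y-linked counts, and a sex term was an alternative for the sums over all barcodes. In the Insm1 controls the library with all lobules is female and the other male. In the Insm1 mutants the library with all lobules is male and the others are female. Within either Insm1 group sex and dissection therefore cannot be told apart. The shares and the fits within classes had no sex term. P-values of the fits mix the spread between single animals with differences in the dissection effect between genotype groups. Only the mutant groups held 2 libraries of the same dissection.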

Additional observations from a re-analysis of the deposited data

Results flagged for a closer look

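In 168 sets of 4 or 6 libraries, a library far from the others of its dissection was looked for. Chance flags about 1 in 20 sets drawn from a single population, but each set here mixed controls and mutants of both alleles. All flags are listed below as a description, and their number was not tested against chance. Gm49144 was highest in the Insm1 control without lobules IX and X, at 72.7 CPM, far from the other 5 libraries without them. Ttr was highest in the Tead1/2 control with all lobules, at 58.0 CPM, and in the Tead1/2 control without lobules IX and X, at 24.9 CPM. Gm13123 at 0.364 CPM and Gm8730 at 0.243 CPM were highest in the Insm1 control with all lobules, far from the other 3 libraries of that dissection. Both were named for a small p in the interaction with mutation. Pcp2, at 1.33 CPM, was highest in the Insm1 mutant with all lobules. Gpr17 at 78.2 CPM, Olig1 at 5.34 CPM and Olig2 at 10.8 CPM, all of the oligodendrocyte lineage, were highest in Tead1/2 mutant 3.

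Opposite orders without overlap in the Insm1 and the Tead1/2 libraries were seen for 7 of the genes named in the report, given here as the mean of all lobules minus without, first in the Insm1 and then in the Tead1/2 groups. Itpr1 differed by -293.2 CPM and 12.98 CPM, Shisa6 by -48.5 CPM and 2.13 CPM, and Plcb4 by -55.8 CPM and 15.4 CPM. Skor2 differed by -5.00 CPM and 0.049 CPM and 4930524C18Rik by -0.32 CPM and 0.0958 CPM. Insm1 differed by 4.83 CPM and -15.7 CPM, and Gm11645 by 0.0218 CPM and -1.50 CPM. In mutants and then controls, Gsn differed by 4.89 CPM and -2.66 CPM and A730006G06Rik by 1.02 CPM and -0.22 CPM. Gm11645, Itpr1, Shisa6 and 4930524C18Rik were named for a small p in the interaction with allele. Gsn and A730006G06Rik were named for a small p in the interaction with mutation. Their opposite orders are therefore a description. The share of all genes with such opposite orders was not counted. In neither interaction did edgeR call any gene at an FDR under 0.05.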

How the results depend on the processing

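No paired analysis was possible because number 1 is the all-lobule dissection in every genotype group, so that a replicate block and the dissection coincide. The lobule contrast over all kept barcodes stayed at 0 calls in edgeR under the other barcode filters, scalings, sample subsets, sex term and 10 leave-one-out fits (0 to 0 calls, with 1118 to 2587 genes at an unadjusted p under 0.05), and rose to 17 with DESeq2 and 49 with no low-count filter. The interaction with mutation rose from 0 to 11 and 150 calls and that with allele from 0 to 140 and 665 under the same 2 settings, and leave-one-out fits gave 0 to 0 and 0 to 7, the last without the Insm1 mutant with all lobules.
Within classes DESeq2 called 36 in granule neuron-like, 70 in oligodendrocyte lineage-like, 10 in GABAergic interneuron-like, 34 in astroglia-like, 6 in endothelial-like, 37 in granule lineage-like, 19 in granule progenitor-like, 89 in meningeal fibroblast-like and 2 in microglia-like barcodes. Leave-one-out counts ran from 0 to 22, 0 to 9, 0 to 2, 0 to 1, 0 to 1, 0 to 9, 0 to 1, 0 to 102 and 0 to 0 in that order.
Granule progenitor-like shares differed by 2.70 points at resolution 2.0 (exact p = 0.0556) and by 1.69 to 3.59 points leaving out libraries. Purkinje cell-like shares differed by -0.89 points with at least 2000 transcripts and 1000 genes (exact p = 0.0556) and by -1.18 to -0.62 points leaving out libraries, where the smallest p such tests allow can pass 0.05. Without the 10% highest Scrublet scores the GABAergic interneuron-like (-0.23 points), ependyma-like (0.0796 points) and mural-like (-0.00898 points) differences changed sign. Leaving out libraries gave -0.22 to 0.74, -0.13 to 0.18 and -0.0994 to 0.11 points. The Eomes-positive difference was -0.30 points without thinning.
Single genes changed sign. Tead1 was -0.00333 with no filter, -0.00521 without high Scrublet scores, -0.00181 with a sex term, -0.11 with no genotype block, -0.0274 in mutants, -0.0422 in Tead1/2 libraries and -0.00824 without skeletal muscle-like barcodes, the last an alternative chosen after seeing the data. Calb2 was -0.15 with no block, -0.0515 in mutants and -0.22 in Tead1/2 libraries. Grm2 was 0.21, 0.28 and 0.0236 in the same settings. In controls alone Plcb1 was -0.0114, Insm1 -0.0256 and Tead2 -0.0271. In Insm1 libraries Ttr was -0.13. In Tead1/2 libraries Eomes was -0.19, Plcb4 0.0640 and Insm1 -0.59. Leaving out libraries gave -0.0956 to 0.16 for Calb2, -0.17 to 0.0685 for Grm2, -0.0262 to 0.0361 for Tead1, -0.0112 to 0.36 for Eomes and -0.39 to 0.43 for Insm1. The cause of these changes was not tested. The 4 control libraries and 1 library with all lobules per group limit what differences could be detected.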
